A study of Mus musculus with 15 samples.

Results

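The genes described here are Fbxw7, Cul1, Usp28, Myc, Mycn and Max, 6 of the 18762 genes in a table of mouse embryonic stem (ES) cell transcripts. They were chosen by name, because Fbxw7 and Myc form the axis that loss of METTL5 is proposed to alter in ES cells. Earlier results of these data were known when they were chosen. The table holds FPKM (fragments counted per gene, divided by transcript length and by library size) for polyadenylated RNA of 15 libraries from C57BL/6N ES cells that were wild type (WT) or Mettl5-/- (KO). METTL5 is a methyltransferase that modifies ribosomal RNA of the small subunit. Cells were sampled undifferentiated at day 0 (ES cells), after 6 days without LIF on dishes coated against attachment (embryoid bodies, EBs), and after 6 days in N2B27 medium, which is used for neural differentiation. Each culture had 2 WT libraries, titled Ctr (here replicate 1) and WT (replicate 2), and 3 KO libraries numbered 1 to 3. The labels give no feeder layer, no further allele or agent, and not which stretch of Mettl5 was removed. They also do not say whether a number marks a clone or a separate culture, and the p-values therefore cover only library-to-library spread, part of which may be technical.

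FBXW7 is the substrate receptor of an SCF ubiquitin ligase. It binds phosphorylated motifs in MYC, MYCN, cyclin E, Notch, JUN and other short-lived proteins, while CUL1 is the scaffold that holds the receptor, through SKP1, next to the RING subunit RBX1. USP28 is a deubiquitinase that counteracts FBXW7, described for MYC in human cells. MYC and MYCN are basic helix-loop-helix leucine zipper transcription factors that need MAX as a partner to bind the E-box sequence CACGTG, and they support growth and self-renewal in ES cells. Much of this control acts on protein, which RNA levels do not measure.

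RefSeq promoter windows of 300 bases around annotated starts (GRCm38.p6) were matched for 5 of the 6 genes: Fbxw7 and Cul1 with 3 starts each and Mycn, Max and Usp28 with 1 each. The windows below are shown because Max and the first Cul1 start hold the E-box that MAX dimers recognise, and the first Fbxw7 start does not. The Fbxw7 start shown is the most GC-rich of its 3, and the Cul1 start shown the least (52%). The other Cul1 starts, with a GC content of 79.7% and 78.7%, hold no E-box, so the contrast depends on the start shown. They are written 5′ to 3′ on the gene's strand in lower case, with each CACGTG in capitals, and this motif reads the same on both strands.
Fbxw7, first start (chr3:84815327-84815626, plus strand): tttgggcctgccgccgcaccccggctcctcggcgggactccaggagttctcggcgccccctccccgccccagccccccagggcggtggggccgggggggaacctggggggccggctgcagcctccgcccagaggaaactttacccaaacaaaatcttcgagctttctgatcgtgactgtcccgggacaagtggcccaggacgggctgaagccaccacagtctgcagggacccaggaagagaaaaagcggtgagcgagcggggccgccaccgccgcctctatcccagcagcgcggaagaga
Cul1, first start (chr6:47453482-47453781, plus strand): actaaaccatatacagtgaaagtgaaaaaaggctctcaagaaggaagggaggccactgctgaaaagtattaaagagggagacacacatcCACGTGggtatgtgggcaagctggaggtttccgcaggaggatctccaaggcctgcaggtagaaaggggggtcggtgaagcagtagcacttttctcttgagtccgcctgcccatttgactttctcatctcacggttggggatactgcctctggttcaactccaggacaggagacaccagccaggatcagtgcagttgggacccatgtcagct
Max (chr12:76962199-76962498, minus strand): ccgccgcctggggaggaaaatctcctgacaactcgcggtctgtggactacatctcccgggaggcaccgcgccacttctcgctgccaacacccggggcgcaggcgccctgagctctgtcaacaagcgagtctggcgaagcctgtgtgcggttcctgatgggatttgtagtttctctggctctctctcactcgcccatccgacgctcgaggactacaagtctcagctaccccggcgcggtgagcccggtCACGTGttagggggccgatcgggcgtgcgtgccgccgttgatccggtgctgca

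The E-box began at base 90 of the Cul1 window and at base 248 of the Max window, counted from 1 at the 5′ end. None was found in the other 7 windows, which for Fbxw7 had a GC content of 69%, 29.7% and 46%. Of all 32851 promoter windows in RefSeq's set, 7.15% held the motif, and among the 10362 tested genes with a window 11.9% held it in at least 1 start. Among the gene lists used below, the motif was in a window of 16 of 69 matched MYC target genes (23.2%) and 6 of 27 MAX network genes (22.2%). In the other lists the share was between 0% and 11.5%. A match describes these letters only and is no evidence of binding.

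The libraries were alike in depth, estimated at 16600000 to 18400000 fragments each, and followed their labels. The FPKM of a library summed to between 451651 and 554986, 10953 to 11807 genes reached 1 FPKM, and libraries of a group correlated across genes with r between 0.9857 and 0.9967. Mettl5, the targeted gene, ranged from 7.21 to 10.65 FPKM in KO and from 19.03 to 20.85 in WT ES cells, from 5.22 to 9.07 against 17.7 to 19.79 in EBs, and from 3.29 to 6.41 against 8.37 to 8.65 in N2B27, so that each KO library lay below each WT library of its culture. The 14 pluripotency markers summed to between 5039.0 and 5529.1 FPKM in ES cells and to between 188.8 and 305.8 in N2B27. In EBs they summed to between 1725.6 and 1860.4 FPKM in WT and between 2238.7 and 2568.8 in KO. Dppa3, a gene of this list, was listed at 0 in at least 1 N2B27 library of each genotype. Unlike the sum, it was low in ES cells, at 0.73 to 1.86 FPKM in WT and 0.56 to 1.06 in KO. Its highest values were in EBs, at 18.56 to 26.44 FPKM in WT and 8.91 to 12.3 in KO. The 14 neural markers summed to between 666.0 and 816.6 FPKM in N2B27 and to between 99.8 and 148.3 in the other cultures. Tubb3 made up most of the sum in ES cells, with a mean of 118 FPKM in WT, against 21.5 in WT EBs. Elavl3 was also lower in WT EBs (1.5 against 4.47 FPKM in WT ES cells). The other genes of the list had higher means in WT EBs than in WT ES cells, such as Sox1 (28.4 against 6.21 FPKM) and Nes (13.5 against 1.27). The 16 germ layer and primed markers summed to between 640.8 and 803.8 FPKM in EBs and to between 417.0 and 714.5 in N2B27. In ES cells they summed to between 56.4 and 63.9 FPKM. The sum thus set both differentiated cultures apart from ES cells and not from each other, which was not so for every gene. Eomes had a mean of 34.5 FPKM in WT EBs and 1.48 in WT N2B27, and Fgf5 40.6 and 3.09. Krt8 (149 and 155) and Otx2 (90.8 and 88.7) were nearly level. Between genotypes in EBs, Hand1 had a mean of 16.2 FPKM in WT and 2.52 in KO, and Otx2 90.8 and 114. The 12 fibroblast markers summed to between 11.3 and 32.2 FPKM in all libraries. Dcn, Lum, Postn and Fap were listed at 0 in every ES library of both genotypes. Col3a1 was at 0 in all 3 KO ES libraries and at 0 to 0.01 FPKM in WT ES cells. In such bulk RNA, fewer cells of a type and less RNA per cell cannot be told apart, and the part of these shifts in cell makeup in the results below was not tested.

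The 6 genes were expressed in every library, from 5.77 FPKM (Fbxw7 in KO EB replicate 2) to 93.43 FPKM (Mycn in KO EB replicate 1). Over the 15 libraries Fbxw7 had the lowest mean of the 6, 9.5 FPKM, which was the 49.4th percentile of the 12929 genes tested. Usp28 followed with 18.6 FPKM (67.4th percentile) and Myc with 34.6 (81.5th). Cul1, Max and Mycn had means of 58.9, 59.9 and 64.0 FPKM (89.5th to 90.5th percentile). FPKM is scaled to transcript length, so these levels can be set side by side. The ligase scaffold gene Cul1 was thus several times more abundant at the RNA level than the receptor gene Fbxw7. At the estimated depth and the shortest transcript of each gene, the lowest Fbxw7 value stood for about 217 fragments, a counting error of 6.8% (SD). The lowest values of the other genes stood for 364 (Myc) to 2450 (Cul1) fragments. Fbxw7 transcripts run from 2221 to 4473 bases, so its fragments may be more and its error smaller. Fbxw7 overlaps the annotated genes Gm37240 on the opposite strand and Gm37726 on its own strand, Max overlaps Gm47218, and Cul1 overlaps A930035D04Rik. Whether the counting used strand is not given in the sources used here.

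**Figure D1:**
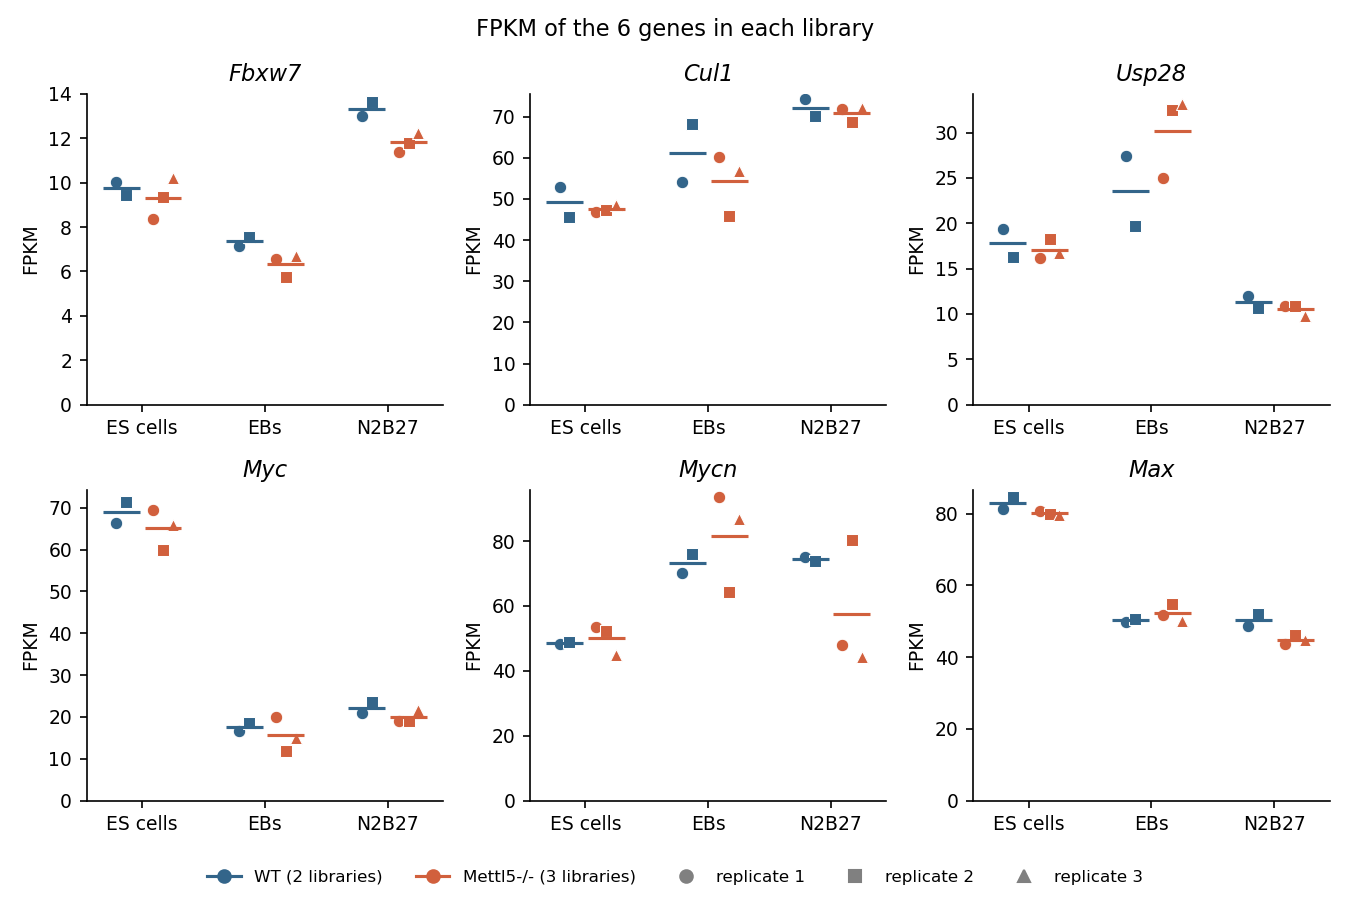
FPKM (y axis, from 0, a scale for each gene) of the 6 genes in the 15 libraries, by culture (x axis) and genotype (colour). Points are libraries, their shape gives the replicate and bars are group means; Myc lies between 59.81 and 71.36 FPKM in ES cells and between 11.84 and 23.63 in EBs and N2B27.

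All calls among the 6 genes were between cultures, and none was between genotypes. Differences between cultures were tested with limma on log2(FPKM + 1) across 12929 genes with Benjamini-Hochberg adjustment, and a gene is called where the adjusted p is under 0.05. On this scale a log2 difference is too small for weakly expressed genes, owing to the added 1. From ES cells to EBs, 2 of the 6 genes rose (Mycn and Cul1) and 3 fell (Fbxw7, Myc and Max) in WT, beside 35.8% of all genes tested that were called higher and 23.6% lower. In KO cells 2 rose (Mycn and Usp28) and 3 fell (Fbxw7, Myc and Max), beside 36.2% higher and 28.5% lower. From ES cells to N2B27, 3 rose (Fbxw7, Cul1 and Mycn) and 3 fell (Myc, Max and Usp28) in WT, beside 41.5% and 29.2% of all genes. In KO cells 2 rose (Fbxw7 and Cul1) and 3 fell (Myc, Max and Usp28), beside 43.5% and 33.2%. Between the differentiated cultures, N2B27 against EBs, 1 gene was higher (Fbxw7) and 1 lower (Usp28) in WT, beside 31.2% and 25.3% of all genes, and in KO cells 3 were higher (Fbxw7, Myc and Cul1) and 3 lower (Usp28, Mycn and Max), beside 38.8% and 29.6%. More than 1 in 2 genes of the table were called in each of these comparisons, so the counts among the 6 are given beside that background and not as particular to them. The changes from ES cells to EBs and to N2B27 share their ES libraries, and are given side by side only.

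**Figure D2:**
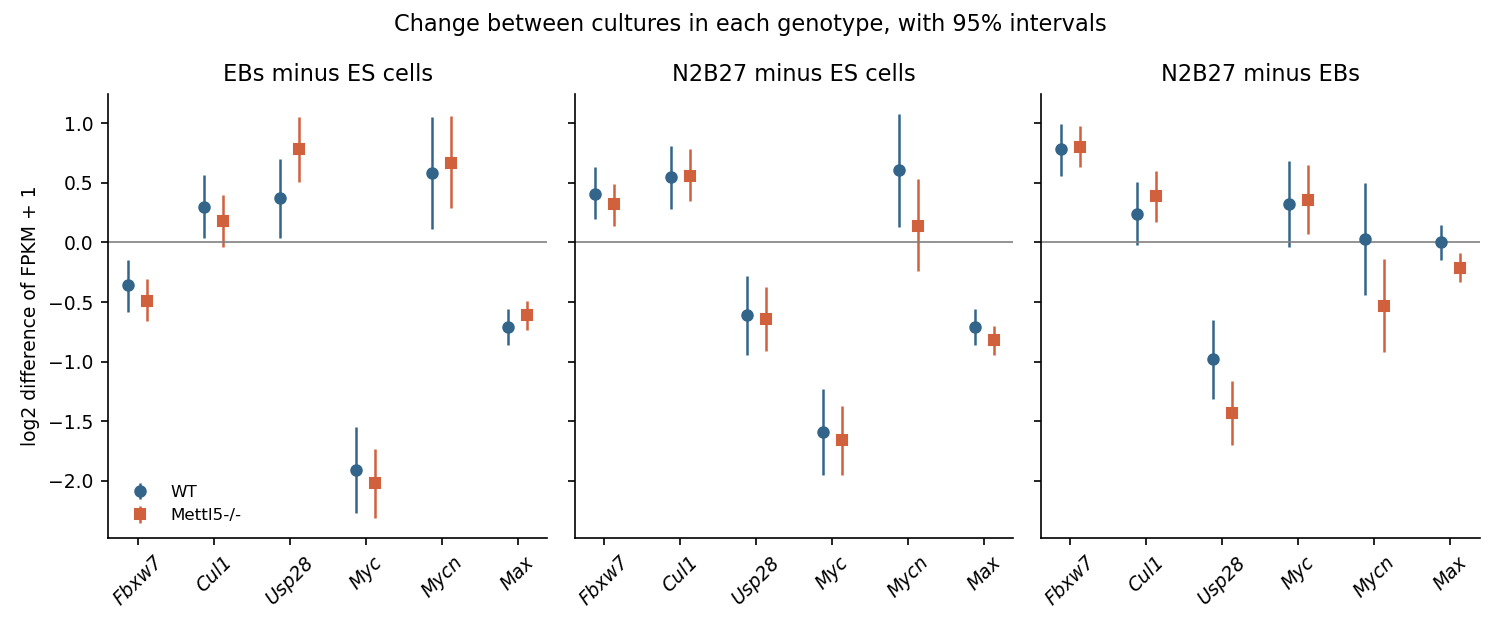
Log2 difference of FPKM + 1 (y axis) of the 6 genes (x axis) between cultures, with 95% intervals, for WT (circles, 2 libraries per culture) and Mettl5-/- (squares, 3 per culture). Myc and Max lie below 0 in both comparisons with ES cells, and Fbxw7 and Usp28 take opposite signs in EBs and in N2B27.

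Fbxw7, the receptor gene, was lowest in EBs and highest in N2B27. WT libraries had 10.04 and 9.45 FPKM in ES cells, 7.13 and 7.57 in EBs, and 13.01 and 13.62 in N2B27. KO libraries had 8.38, 9.36 and 10.21 FPKM in ES cells, 6.57, 5.77 and 6.7 in EBs, and 11.38, 11.8 and 12.25 in N2B27. The ranges of the 3 cultures did not overlap in either genotype. In EBs Fbxw7 fell by 0.36 ± 0.10 (SE) on the log2 scale in WT (adjusted p = 0.00646) and by 0.49 ± 0.08 in KO cells (0.000128). In N2B27 it rose by 0.41 ± 0.10 in WT (adjusted p = 0.00203) and by 0.32 ± 0.08 in KO cells (0.00293). The order of group means was WT N2B27 (13.3 FPKM), KO N2B27 (11.8), WT ES (9.74), KO ES (9.32), WT EB (7.35) and KO EB (6.35). The only neighbours whose libraries overlapped were WT and KO ES cells, although no difference between genotypes was called. Of all genes tested, 26.5% had no overlap between genotypes in EBs and 22.1% in N2B27, so this separation is not particular to Fbxw7.

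Cul1, the scaffold gene, was highest in N2B27. WT libraries had 52.78 and 45.61 FPKM in ES cells, 54.2 and 68.17 in EBs, and 74.19 and 70.2 in N2B27. KO libraries had 46.78, 47.37 and 48.49 FPKM in ES cells, 60.16, 45.87 and 56.88 in EBs, and 71.76, 68.6 and 72.08 in N2B27. The N2B27 libraries lay above all ES and EB libraries, while EB libraries varied widely and KO EB replicate 2 lay within the ES range. Cul1 rose in N2B27 by 0.55 ± 0.12 in WT (adjusted p = 0.00118) and by 0.56 ± 0.10 in KO cells (0.00014). The smaller rise in WT EBs, 0.30 ± 0.12 (adjusted p = 0.0474), was no longer called without WT ES replicate 2 (0.288) or WT EB replicate 2 (0.407). In KO EBs the difference was 0.18 ± 0.10 (adjusted p = 0.135), which was called without KO EB replicate 2 (0.0121). By group mean N2B27 (72.2 FPKM in WT, 70.8 in KO) stood above EBs (61.2 and 54.3) and ES cells (49.2 and 47.5), with overlap between EBs and ES cells in KO only.

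Usp28, the opposing deubiquitinase gene, ran the other way from Fbxw7. WT libraries had 19.37 and 16.31 FPKM in ES cells, 27.41 and 19.67 in EBs, and 11.99 and 10.66 in N2B27. KO libraries had 16.15, 18.25 and 16.71 FPKM in ES cells, 25.02, 32.5 and 33.15 in EBs, and 10.9, 10.92 and 9.79 in N2B27. EBs were highest and N2B27 lowest, with no overlap between cultures in either genotype. In N2B27 Usp28 fell by 0.61 ± 0.15 on the log2 scale in WT (adjusted p = 0.00266) and by 0.64 ± 0.13 in KO cells (3e-04). In EBs the difference was 0.37 ± 0.15 in WT (adjusted p = 0.0528), and Usp28 rose by 0.78 ± 0.13 in KO cells (8.44e-05). The WT value became a call without WT ES replicate 1 (adjusted p = 0.0461) or WT EB replicate 2 (0.0074). Group means ran from 30.2 (KO EB) and 23.5 FPKM (WT EB) through 17.8 and 17.0 (WT and KO ES) to 11.3 and 10.5 (WT and KO N2B27), and the 2 genotypes overlapped in each culture.

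The level of Fbxw7 set against that of Usp28 therefore differed most between EBs and N2B27. In N2B27 all 5 libraries had more Fbxw7 than Usp28, with a log2 ratio of FPKM between 0.06 and 0.35. In ES cells the ratio lay between -0.96 and -0.71, and in EBs between -2.49 and -1.38. Over the 15 libraries the 2 genes had r = -0.94 on log2(FPKM + 1), a description of points that share 3 cultures and their libraries.

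Myc had its highest level in ES cells. WT libraries had 66.39 and 71.36 FPKM in ES cells, 16.56 and 18.62 in EBs, and 20.84 and 23.63 in N2B27. KO libraries had 69.35, 59.81 and 65.9 FPKM in ES cells, 20.05, 11.84 and 14.91 in EBs, and 18.95, 19.04 and 21.66 in N2B27. Every ES library (59.81 FPKM or more) stood far above every differentiated library (23.63 FPKM or less). Myc fell in EBs by 1.91 ± 0.17 on the log2 scale in WT (adjusted p = 3.37e-07) and by 2.02 ± 0.14 in KO cells (1.79e-08). In N2B27 it fell by 1.59 ± 0.17 in WT (adjusted p = 9.34e-07) and by 1.66 ± 0.14 in KO cells (4.58e-08). N2B27 stood above EBs by 0.36 ± 0.14 in KO cells (adjusted p = 0.0304), which was no longer called without KO EB replicate 2 (0.161), KO EB replicate 3 (0.0738) or KO N2B27 replicate 3 (0.105), and by 0.32 ± 0.17 in WT (0.115).

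Mycn, the paralogue with a known role in neural progenitors, did not follow Myc. WT libraries had 48.32 and 48.98 FPKM in ES cells, 70.18 and 76.12 in EBs, and 75.23 and 73.92 in N2B27. KO libraries had 53.4, 52.24 and 45.02 FPKM in ES cells, 93.43, 64.21 and 86.92 in EBs, and 47.88, 80.39 and 44.16 in N2B27. Both differentiated cultures lay above ES cells in WT without overlap, whereas in KO N2B27 replicate 1 lay within the KO ES range, replicate 3 just below it and replicate 2 far above it. Mycn rose in EBs by 0.58 ± 0.22 in WT (adjusted p = 0.0355) and by 0.67 ± 0.18 in KO cells (0.00444). In N2B27 it rose by 0.61 ± 0.22 in WT (adjusted p = 0.0237) and differed by 0.14 ± 0.18 in KO cells (0.478). Both WT calls were lost without any 1 of their 4 libraries (adjusted p between 0.072 and 0.135 in EBs and between 0.0685 and 0.0806 in N2B27). In KO cells N2B27 was lower than EBs by 0.53 ± 0.18 (log2 difference -0.53, adjusted p = 0.0173), a call lost without KO EB replicate 1 (0.0728), KO EB replicate 3 (0.0588), KO N2B27 replicate 1 (0.0764) or KO N2B27 replicate 3 (0.0931).

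Max, the obligate partner gene, was highest in ES cells, like Myc, and fell less. WT libraries had 81.42 and 84.7 FPKM in ES cells, 49.9 and 50.56 in EBs, and 48.59 and 52.06 in N2B27. KO libraries had 80.64, 80.04 and 79.64 FPKM in ES cells, 51.67, 54.83 and 50.11 in EBs, and 43.71, 46.27 and 44.8 in N2B27. ES libraries stood clear of all others, and the differentiated cultures overlapped in WT and not in KO cells. Max fell by 0.71 ± 0.07 in WT EBs (adjusted p = 1.07e-06) and by 0.71 ± 0.07 in WT N2B27 (4.77e-07). In KO cells it fell by 0.61 ± 0.06 in EBs (adjusted p = 4.85e-07) and by 0.82 ± 0.06 in N2B27 (7.77e-09). KO N2B27 was lower than KO EBs (log2 difference -0.21 ± 0.06, adjusted p = 0.00451), which turned to 0.01 (0.899) when each library was scaled to the same FPKM sum, a scaling that shifted the median of all genes in that comparison by 0.22.

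The makeup of MYC family RNA differed between cultures. Mycl, the third paralogue, read beside the 6 genes, had 4.4 to 5.1 FPKM in ES cells, 13.4 to 18.72 in EBs and 23.7 to 35.54 in N2B27, and rose in WT by 1.70 ± 0.13 in EBs (adjusted p = 1.08e-07) and by 2.55 ± 0.13 in N2B27 (6.03e-10). Myc made up 51.1% to 57.1% of the summed FPKM of the 3 genes in ES cells, 12.7% to 16.4% in EBs and 15.1% to 24.2% in N2B27. Mycn made up 38.9% to 44.6%, 67.1% to 74.2% and 49.3% to 63.6%, and Mycl 3.46% to 4.35%, 13.1% to 16.5% and 21.4% to 30.4%. The sum itself varied less, from 89.45 to 131.61 FPKM, and ES libraries (115.76 to 127.15) lay within the range of the other cultures. Max was 0.634 to 0.688 times the sum in ES cells and 0.366 to 0.613 times in the differentiated cultures.

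**Figure D3:**
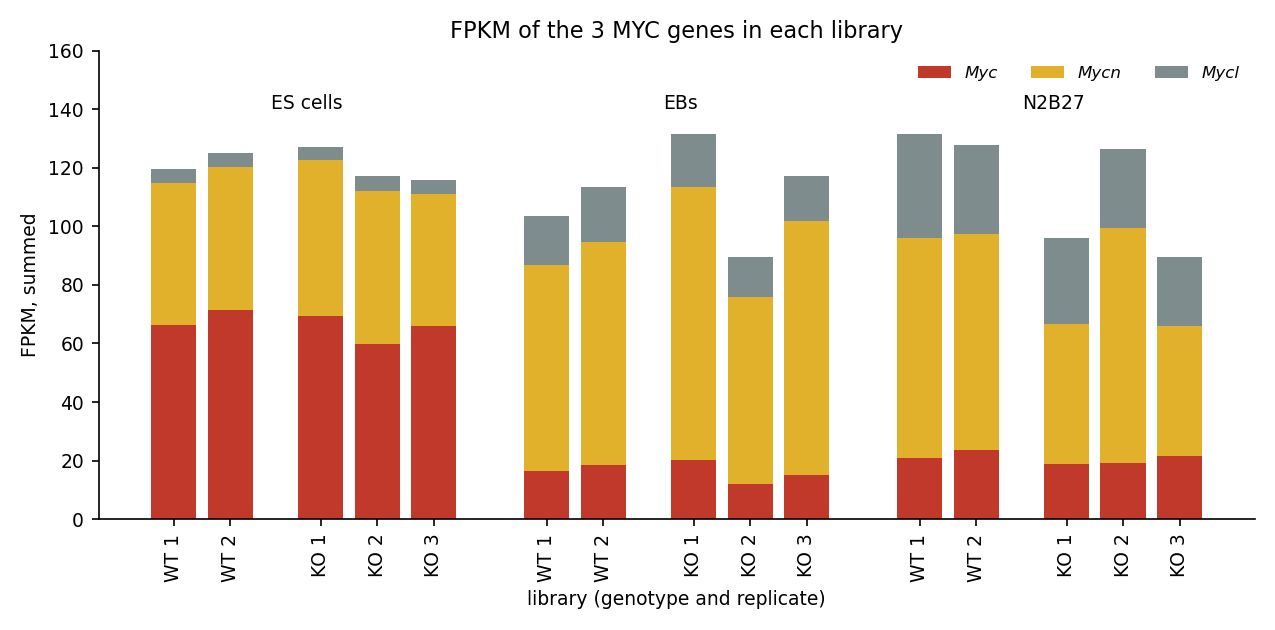
Stacked bars of the FPKM of Myc, Mycn and Mycl (y axis, summed, from 0) in each of the 15 libraries (x axis; KO is Mettl5-/-, the number is the replicate). Myc is the largest share in the 5 ES libraries and Mycn in the 10 others, while the sums lie between 89.45 and 131.61.

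In ES cells, for which the axis was proposed, none of the 6 genes was called between KO and WT. No gene of the whole table was called there (0% of 12929, by limma), and at an unadjusted p under 0.05 there were 447 genes and 0 of the 6. The targeted gene Mettl5 was itself not called, although its log2 difference, KO minus WT, was -1.08 ± 0.23 (adjusted p = 0.675). The log2 difference, KO minus WT, was -0.06 ± 0.09 for Fbxw7 (95% interval -0.26 to 0.14) and -0.08 ± 0.15 for Myc (-0.41 to 0.24). Mycn differed by 0.04 ± 0.20 (-0.39 to 0.47), Max by -0.05 ± 0.06 (-0.19 to 0.09), Cul1 by -0.04 ± 0.11 (-0.29 to 0.20) and Usp28 by -0.06 ± 0.14 (-0.36 to 0.24), with an adjusted p of 1 for each of the 6. Libraries of the 2 genotypes overlapped for every gene except Max, whose 3 KO values (79.64 to 80.64 FPKM) lay just below the 2 WT values (81.42 and 84.7), while 24% of all genes tested had no overlap in ES cells. These intervals leave room for a change of either sign, and the missed threshold does not show that the levels are equal.

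In EBs 2.27% of all genes tested were called between genotypes, and none of the 6. Mettl5 was called lower (-1.42 ± 0.23, adjusted p = 0.00576), a call lost in a fit of the compared groups alone (0.106). The call also depended on WT EB replicate 2, without which the log2 difference was -1.34. At an unadjusted p under 0.05 there were 1895 genes, among them Usp28. Usp28 had 25.02 to 33.15 FPKM in KO against 19.67 and 27.41 in WT, with overlap, and a log2 difference of 0.35 ± 0.14 (95% interval 0.05 to 0.66, adjusted p = 0.252). Fbxw7 was lower in all 3 KO libraries (5.77 to 6.7 FPKM) than in both WT libraries (7.13 and 7.57), with a log2 difference of -0.19 ± 0.09 (-0.38 to 0.01, adjusted p = 0.37). Such separation was seen for 26.5% of all genes tested in EBs. Myc differed by -0.19 ± 0.15 (-0.52 to 0.14), Mycn by 0.14 ± 0.20 (-0.29 to 0.57), Cul1 by -0.17 ± 0.11 (-0.41 to 0.07) and Max by 0.05 ± 0.06 (-0.08 to 0.19), with adjusted p between 0.537 and 0.812 and overlapping libraries. The pluripotency markers, whose sum was higher in each KO EB library than in both WT EB libraries (2238.7 to 2568.8 against 1725.6 and 1860.4 FPKM), moved in the same culture, and their part in these values was not tested.

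In N2B27 0.101% of all genes tested were called, and again none of the 6. Mettl5 was not called here either (-0.82 ± 0.23, adjusted p = 0.204). At an unadjusted p under 0.05 there were 1144 genes, among them Max. Max had 43.71 to 46.27 FPKM in KO and 48.59 and 52.06 in WT, without overlap, and a log2 difference of -0.16 ± 0.06 (95% interval -0.30 to -0.02, adjusted p = 0.465). Fbxw7 was again below WT in all 3 KO libraries, 11.38 to 12.25 against 13.01 and 13.62 FPKM, at -0.16 ± 0.09 (-0.36 to 0.04, adjusted p = 0.676). Of all genes tested in N2B27, 22.1% had no overlap between genotypes. Myc differed by -0.15 ± 0.15 (-0.48 to 0.17), Cul1 by -0.03 ± 0.11 (-0.27 to 0.22) and Usp28 by -0.09 ± 0.14 (-0.40 to 0.21), with adjusted p between 0.868 and 0.98.

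The widest spread was that of Mycn in KO N2B27 cultures. Its log2 difference was -0.42 ± 0.20 (95% interval -0.85 to 0.01, adjusted p = 0.58), with 47.88 and 44.16 FPKM in KO replicates 1 and 3, 80.39 in replicate 2, and 75.23 and 73.92 in WT. Without KO N2B27 replicate 2 the difference was -0.69 (adjusted p = 0.0279), the only call between genotypes for any of the 6 genes under the alternatives tried. That library also had the highest Mettl5 of the KO N2B27 libraries (6.41 FPKM), the highest pluripotency sum (305.8 FPKM) and the lowest neural sum (666.0 FPKM) of the 5 N2B27 libraries, and the part of these in its Mycn level was not tested. Without it the number of genes called across the table rose from 6 to 182 higher and from 7 to 67 lower in KO N2B27.

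**Figure D4:**
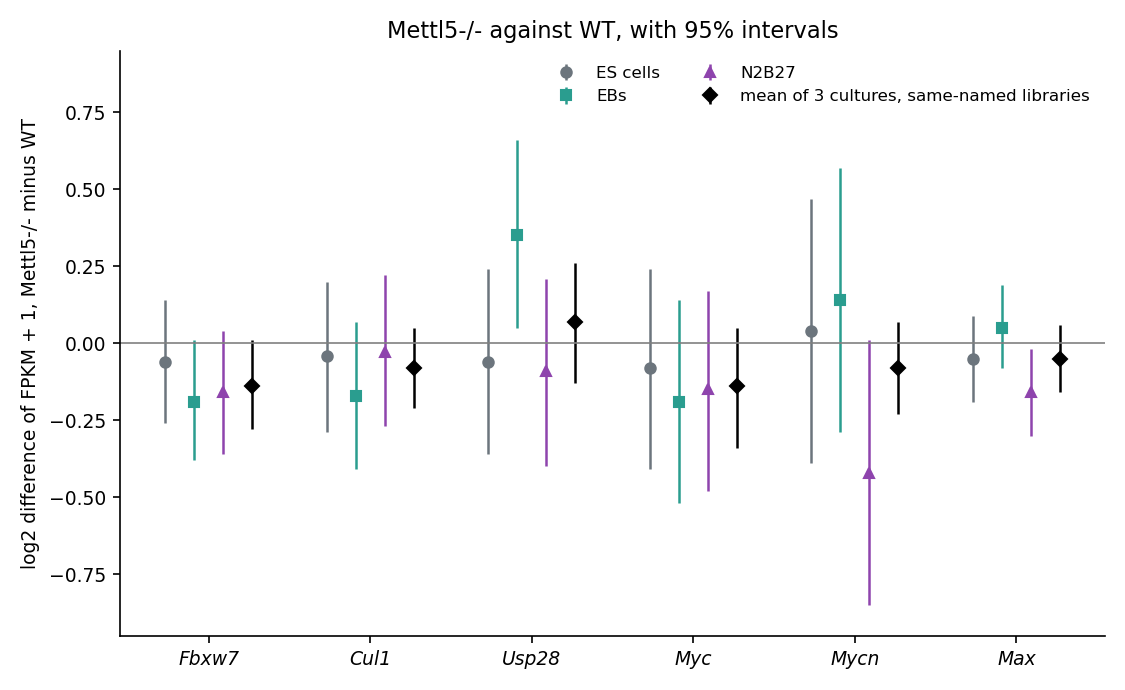
Log2 difference of FPKM + 1, Mettl5-/- minus WT (y axis), with 95% intervals, for the 6 genes (x axis) in ES cells, EBs and N2B27 and for the means over the 3 cultures of same-named libraries. Intervals that leave out 0 are those of Usp28 in EBs (0.05 to 0.66) and Max in N2B27 (-0.30 to -0.02), and neither passes the adjustment over 12929 genes.

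Averaging the 3 cultures of same-named libraries, which gave 2 WT and 3 KO means, narrowed the intervals. None of the 6 genes was called, beside 0.0541% of all genes tested, and at an unadjusted p under 0.05 there were 1494 genes and 0 of the 6. Fbxw7 differed by -0.14 ± 0.06 (95% interval -0.28 to 0.01, adjusted p = 0.458) and Myc by -0.14 ± 0.09 (-0.34 to 0.05, 0.578). The intervals of Mycn (-0.23 to 0.07), Max (-0.16 to 0.06), Cul1 (-0.21 to 0.05) and Usp28 (-0.13 to 0.26) also included 0, with adjusted p between 0.641 and 0.816. Mettl5 in the same fit fell by 1.11 ± 0.09 (adjusted p = 0.00835), a call lost without the filter on low values (0.0993) and without the mean of WT replicate 2 (0.0645).

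The change from ES cells was not shown to differ between genotypes for any of the 6 genes. The difference of the EB change, KO minus WT, was called for 0.155% of all genes tested and for none of the 6, and that of the N2B27 change for 0.00773% and none of the 6. At an unadjusted p under 0.05 there were 991 and 620 genes and 0 of the 6 in each. The largest for EBs was that of Usp28, 0.41 ± 0.20 (adjusted p = 0.663), and for N2B27 that of Mycn, -0.46 ± 0.28 (adjusted p = 1). For Fbxw7 the differences were -0.12 ± 0.13 and -0.10 ± 0.13, and for Myc -0.11 ± 0.22 and -0.07 ± 0.22.

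Ratios within a library were compared between genotypes with two-sided exact permutation tests, in which 3 libraries against 2 cannot give a p below 0.1. The log2 ratio of Myc to Mycn was -2.4 ± 0.165 (SD, n = 3) in KO EBs and -2.06 ± 0.0367 (n = 2) in WT EBs, without overlap (exact p = 0.2). It was 0.374 ± 0.177 against 0.501 ± 0.0598 in ES cells (exact p = 0.5) and -1.48 ± 0.54 against -1.75 ± 0.146 in N2B27 (exact p = 0.5), with overlap in both. The summed FPKM of Myc, Mycn and Mycl was 104 ± 19.7 in KO N2B27 and 130 ± 2.81 in WT N2B27, without overlap (exact p = 0.2), and KO replicate 2 (126.44) lay next to the WT values of 131.61 and 127.64. In ES cells the sum was 120 ± 6.21 against 122 ± 3.85 (exact p = 0.6) and in EBs 113 ± 21.3 against 108 ± 7.06 (exact p = 0.8). The log2 ratio of Fbxw7 to Usp28 was -0.874 ± 0.141 against -0.868 ± 0.114 in ES cells (exact p = 1), -2.24 ± 0.288 against -1.66 ± 0.4 in EBs (exact p = 0.3) and 0.166 ± 0.139 against 0.236 ± 0.167 in N2B27 (exact p = 0.5). Over the same-named means the sum was 112 ± 5.47 against 120 ± 2.7, without overlap (exact p = 0.2). Adjusted over the 12 comparisons of this kind, the smallest p was 0.6, and none could pass 0.05 in this design.

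Genes whose pattern was most like each of the 6, by Pearson r over the 15 libraries on log2(FPKM + 1), are named as a description, since the libraries share 3 cultures. For Myc they were Nqo1 (r = 0.993), Mfsd5, Farsa, Sart1 and Tigar (0.984 or more), for Max they were Rara, Klf4 and Gfod1 (0.99 each), Ass1 and Fbxo2 (0.988 or more). Klf4 is a naive pluripotency factor, and Farsa, which is also in the list of MYC targets below, encodes a subunit of phenylalanyl-tRNA synthetase. For Fbxw7 they were Glyr1 (r = 0.973), Tmem19, Atp6v0a2, Ipo9 and Slc25a44 (0.967 or more), for Usp28 Rgs11 (0.982), Ell3, Polg, Eif4b and Birc2 (0.97 or more), and for Cul1 Zfp386 (0.987), Ift74, Cbfb, Map3k7 and Srek1ip1 (0.965 or more). The closest genes to Mycn were less alike, with Acot1 and Snw1 at r = 0.867, then Fzd7, Fgf15 and Siva1 (0.854 or more). Among the 6 themselves Myc and Max had r = 0.92, Max and Cul1 -0.81, Myc and Mycn -0.64, and Fbxw7 and Myc 0.24.

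The partners and regulators of the ligase were read from lists, counted here without the 6 genes. Of 37 genes for the SCF core and cullin activation, 10 rose and 7 fell in WT EBs, and 12 rose and 8 fell in WT N2B27, which is 27% and 18.9% of the list in EBs and 32.4% and 21.6% in N2B27, each below the share of all genes. Ube2d1, a ubiquitin-conjugating enzyme, rose in N2B27 by 1.35 ± 0.09 (81.8 against 31.5 FPKM in ES cells, adjusted p = 4.26e-09). Cand2, a relative of the cullin exchange factor CAND1, rose by 1.32 ± 0.14, and the COP9 signalosome subunit gene Cops7a fell by 0.68 ± 0.08. The fallen number in N2B27 was 5 without WT ES replicate 1 or with libraries scaled to the same sum. Of 9 tested genes of the other WD40 F-box receptors, Skp2 included, 3 rose and 0 fell in WT EBs (33.3% and 0%, against 35.8% and 23.6% of all genes), and 5 rose and 1 fell in WT N2B27 (55.6% and 11.1%, against 41.5% and 29.2%). In N2B27 Fbxw4 rose by 1.88 ± 0.13 (9.87 against 1.95 FPKM) and Fbxw9 by 1.30 ± 0.10 (33.4 against 13.0). Fbxw10 did not reach the filter on low values. Without that filter 1 receptor gene was called lower in WT EBs and 2 in WT N2B27, and without WT EB replicate 2, 1 in WT EBs.

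Of 36 other ligases, deubiquitinases, kinases and phosphatase genes that act on MYC or FBXW7, 7 rose and 8 fell in WT EBs (19.4% and 22.2%, against 35.8% and 23.6% of all genes). In WT N2B27 11 rose and 10 fell (30.6% and 27.8%, against 41.5% and 29.2%). Gsk3b, the kinase that phosphorylates MYC in the motif FBXW7 reads, rose in N2B27 by 1.51 ± 0.13 (23.4 against 7.58 FPKM, adjusted p = 8.56e-08). Usp25, the closest paralogue of Usp28, rose by 1.97 ± 0.13 in EBs (8.64 against 1.46 FPKM) and by 2.04 ± 0.13 in N2B27 (9.11). Ppp2r5a, a regulatory subunit of protein phosphatase 2A, fell by 1.17 ± 0.10 in EBs and by 1.58 ± 0.10 in N2B27 (25.9 against 78.9 FPKM). The fallen number in N2B27 was 6 without WT ES replicate 1.

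Of 44 genes for FBXW7 substrates other than Myc and Mycn, 42 were tested (Ppargc1a and Trp63 did not reach the filter). In WT EBs 13 rose and 16 fell (31% and 38.1%, against 35.8% and 23.6% of all genes), and in WT N2B27 14 rose and 18 fell (33.3% and 42.9%, against 41.5% and 29.2%). Ccne1, the cyclin E gene, fell in EBs by 1.51 ± 0.14 (47.7 against 138 FPKM, adjusted p = 7.46e-07). Jun rose by 2.56 ± 0.21 in EBs and by 3.66 ± 0.21 in N2B27 (31.9 against 1.57 FPKM), and Notch3 by 1.73 ± 0.11 and 2.12 ± 0.11. Klf2 and Klf5, both also naive pluripotency genes, fell in N2B27: Klf2 fell by 5.19 ± 0.20 (8.08 against 331 FPKM) and Klf5 fell by 4.04 ± 0.20 (9.2 against 165 FPKM). Genes of the whole table also moved in both directions, and RNA does not show the level of the substrate proteins.

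Genes of the MAX network and MYC targets fell more often than they rose. Of all genes tested, 35.8% were called higher and 23.6% lower in WT EBs, and 41.5% and 29.2% in WT N2B27. Of 28 network genes 3 rose and 12 fell in WT EBs (10.7% and 42.9%, median log2 difference -0.19 against 0.11 over all genes) and 6 rose and 13 fell in WT N2B27 (21.4% and 46.4%, median -0.24 against 0.12). Mxd4, which encodes a MAX partner that opposes MYC, rose in N2B27 by 2.54 ± 0.12 (19.3 against 2.5 FPKM, adjusted p = 1.99e-10), and Wdr5, a MYC cofactor gene, fell by 0.94 ± 0.07 (40.1 against 77.9). Of 79 MYC targets of ribosome biogenesis and growth, 5 rose and 48 fell in WT EBs (6.33% and 60.8%, median -0.44 against 0.11), and 5 rose and 61 fell in WT N2B27 (6.33% and 77.2%, median -0.70 against 0.12). In KO EBs 6 of these targets rose and 51 fell (7.59% and 64.6%, against 36.2% and 28.5% of all genes). In KO N2B27 5 rose and 62 fell (6.33% and 78.5%, against 43.5% and 33.2%). Shmt2 and Mthfd2, of mitochondrial folate metabolism, fell in WT EBs by 1.34 ± 0.12 and 1.23 ± 0.11, and Ldha, lactate dehydrogenase A, fell in WT N2B27 by 1.91 ± 0.14 (188 against 710 FPKM). Cdkn1a, a cell cycle inhibitor gene that MYC represses, rose by 2.61 ± 0.12 in N2B27 (195 against 31.3 FPKM). The number of risen targets was 3 in WT EBs without WT ES replicate 1, and 8 in KO N2B27 with libraries scaled to the same sum.

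**Figure D5:**
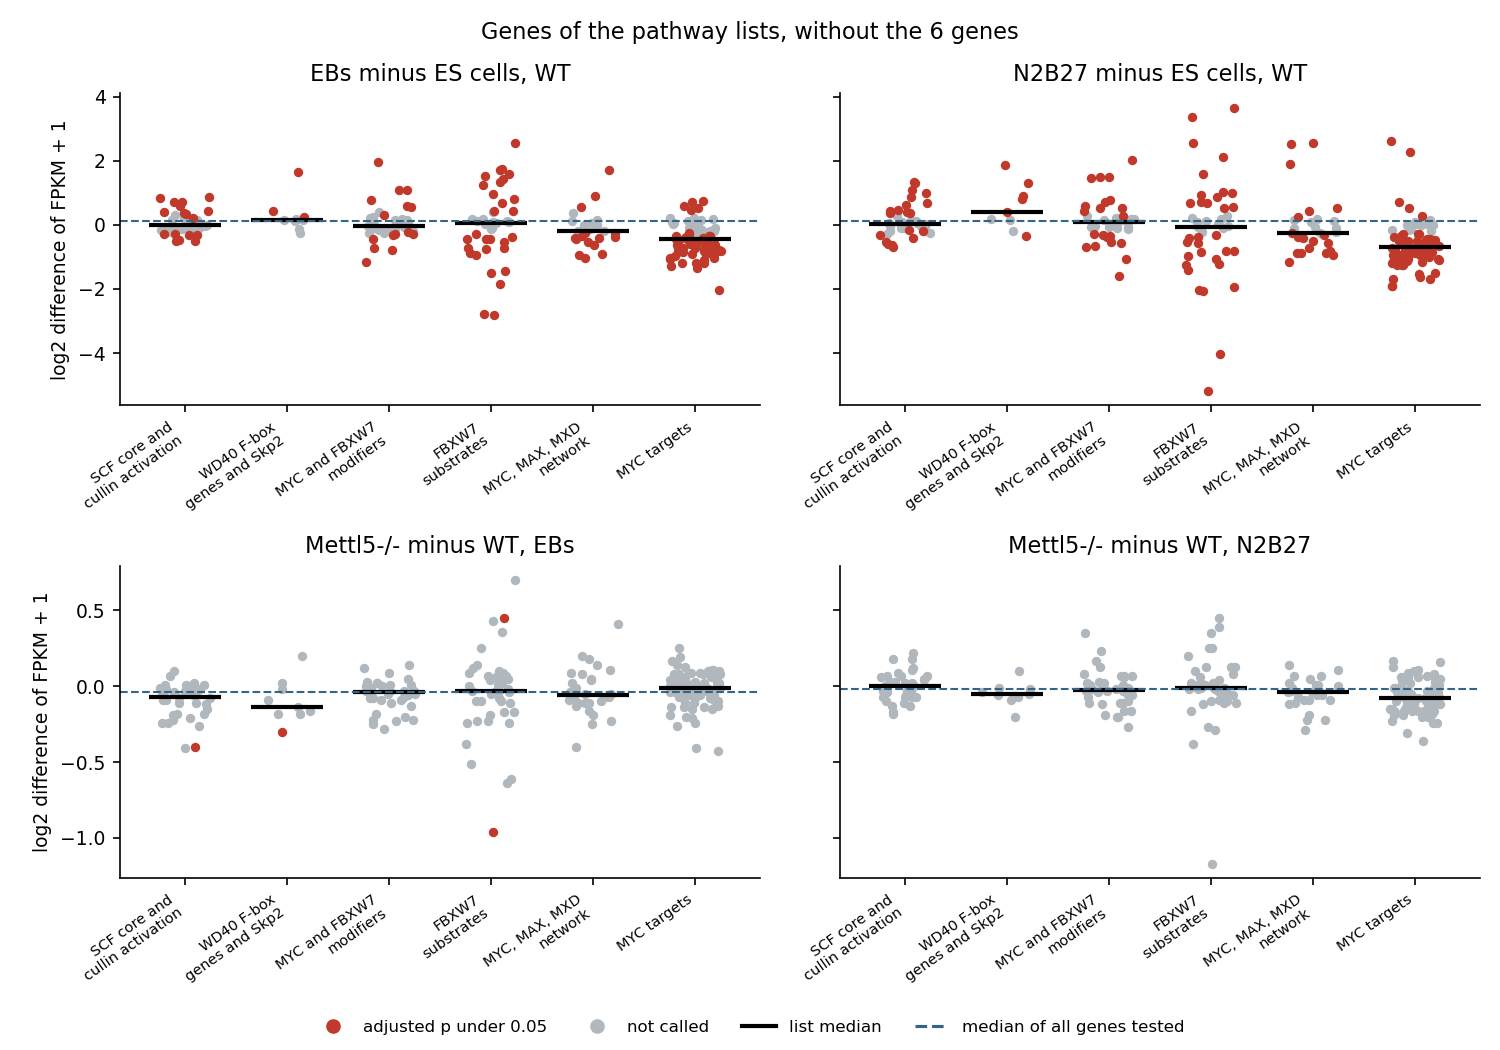
Log2 difference of FPKM + 1 (y axis) for the genes of 6 lists (x axis, without the 6 genes), between cultures in WT (top) and between genotypes (bottom, a narrower y scale). Points are genes, red where the adjusted p is under 0.05, black bars are list medians and the dashed line is the median of all genes tested; the MYC targets have a median of -0.44 in EBs and -0.70 in N2B27.

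Between genotypes the calls in these lists are read against those of all genes tested, 0% in ES cells, 2.27% in EBs, 0.101% in N2B27 and 0.0541% over the same-named means. None of the list genes was called in ES cells, in N2B27 or over the means, and in EBs 4 were, with at most 1 call per direction in a list. Ube2d1 was lower in KO EBs by 0.40 ± 0.08 (log2 difference -0.40, 39.8 against 52.7 FPKM, adjusted p = 0.0174), and Fbxw8, a WD40 receptor gene known to work with CUL7, by 0.30 ± 0.07 (-0.30, 20.9 against 25.9, 0.0312). Mcl1, the gene of an anti-apoptotic FBXW7 substrate, was higher by 0.45 ± 0.10 (108 against 78.7 FPKM, adjusted p = 0.0288), and Snai1, a gene of the mesenchymal transition, lower by 0.96 ± 0.23 (-0.96, 5.94 against 12.5, 0.0454). Each of the 4 calls was lost without WT EB replicate 2 (adjusted p = 0.196, 0.213, 0.285 and 0.0976 in that order) and without KO EB replicate 3 (0.085, 0.128, 0.134 and 0.187), and those of Fbxw8, Mcl1 and Snai1 also without WT EB replicate 1 (0.099, 0.0562 and 0.258). The calls of Fbxw8 and Snai1 were further lost without KO EB replicate 2 (0.0503 and 0.0667) and with median-ratio scaling (0.0735 and 0.0671). All 4 were lost in a fit of the compared groups alone (0.197, 0.36, 0.225 and 0.217), that of Mcl1 with equal FPKM sums (0.0649), and that of Snai1 with a pseudocount of 0.1 (0.0633) and without the filter (0.084). Of the 79 MYC targets, 34 lay above 0 and 45 below in EBs (median -0.01 against -0.04 over all genes) and 20 above and 59 below in N2B27 (-0.08 against -0.02), with none called. In ES cells 25 lay above and 54 below 0 (-0.03 against 0), with none called. The MYC targets were not the only list to lean. Of the 37 SCF core and cullin genes, 6 lay above and 31 below 0 in ES cells (median -0.05 against 0). These counts were the same in EBs (-0.07 against -0.04), and 19 and 18 in N2B27 (0 against -0.02). FBXW7 substrates leaned the other way in ES cells, 29 above and 13 below (0.03 against 0).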

How the data were processed

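Polyadenylated RNA of 15 mouse ES cell libraries was sequenced, and the authors deposited 1 table of FPKM values for 18762 genes, per the file headers. The submitters' processing notes name Bowtie2, RSEM and the build mm10. Versions, annotation and any filter are not given in the sources used here. With RSEM, fragments that match several transcripts are divided among them by an estimate. Spreadsheet conversion was undone first: 27 symbols had become dates and were restored through their Entrez IDs, 2 genes had no symbol, and 18717 IDs matched RefSeq GRCm38.p6. Depth is not stated and was estimated from low values of genes with 1 transcript length, of which 63.7% to 69.5% per library were whole multiples of 1 fragment within 0.1, against a median of 13.0% to 16.1% over the totals tried.

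Genes with at least 1 FPKM in at least 2 libraries (12929) were transformed to log2(FPKM + 1). Group means of all 15 libraries were fitted together with limma 3.58.1 (R 4.3.3, trended variance, 9 residual degrees of freedom). P-values were adjusted by Benjamini and Hochberg's method over all 12929 genes. The 12 contrasts were KO against WT in each culture and over means of same-named libraries (5 means, 3 residual degrees of freedom), each pair of cultures within a genotype, and the genotype difference in the change to EBs and to N2B27. The scripts were tested on simulated data. Single ratios were compared with exact permutation tests. List genes named in the text are among the 4 per direction with the largest change among calls, and genes most like each of the 6 are the 5 with the highest r. The 6 genes, the lists and the tests were chosen with earlier results of these data known, so the lists are no independent evidence of direction. Alternatives were a pseudocount of 0.1, no filter, scaling to equal FPKM sums or by median ratios, a replicate block, a fit of the compared groups alone, and leaving out each library.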

Additional observations from a re-analysis of the deposited data

How the results depend on the processing

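Calls between cultures for Fbxw7, and for Usp28 in N2B27, held under every alternative tried. Those of Max did too, except in KO N2B27 against KO EBs, where the difference turned from -0.21 to 0.01 with libraries scaled to equal FPKM sums. The cause of the other changes was not tested. Of the 6 genes, 5 were called in WT EBs against ES cells, 3 without the filter, 3 with median-ratio scaling and 3 to 5 when 1 library was left out. In WT N2B27 against EBs the number was 2, 4 with equal sums (Myc at adjusted p = 0.0201 and Cul1 at 0.0127 were added) and 2 to 3 when 1 library was left out. Between genotypes in N2B27 it was 0, and 0 to 1 when 1 library was left out. The difference in summed MYC family RNA in N2B27 was -25.6 FPKM and -53.4 on the scale of equal sums, whose unit differs. Mycn in WT EBs lost its call without the filter (adjusted p = 0.0647) and with median-ratio scaling (0.0531), as it did in WT N2B27 (0.0507), and Cul1 in WT EBs without the filter (0.0671), with equal sums (0.134), with median-ratio scaling (0.0776) and in a fit of the compared groups alone (0.0859). In KO N2B27 against KO EBs, Myc lost its call with median-ratio scaling (0.0776) and in a fit of the compared groups alone (0.0896), and Mycn with equal sums (0.111) and in that fit (0.0694).

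Deviations of same-named KO libraries from their group means had r between -0.178 and 0.265 across cultures, above 0.1 in 3 of 9 pairs. Between ES cells and EBs these r were 0.056 to 0.265, against -0.229 to 0.026 for other-named KO libraries. Between EBs and N2B27 they were -0.178 to 0.046, against -0.272 to 0.236. The 2 WT libraries of a culture mirror each other, so their r (-0.029 to 0.061) say little. These values do not decide whether the numbers pair libraries, and the main fit did not pair them. With the replicate block, Mycn (adjusted p = 0.0533) and Cul1 (0.0578) lost and Usp28 (0.0224) gained a call in WT EBs against ES cells, and 1 and 6 genes of the table, in place of 2 higher and 18 lower, were called for the genotype difference in the EB change. No other call of the 6 genes changed with the block.

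Counts over the whole table depended more on the settings. KO EBs had 84 higher and 209 lower genes, 46 and 135 with a pseudocount of 0.1, 5 and 14 in a fit of the compared groups alone, 52 higher with equal sums, and 10 to 110 higher and 46 to 276 lower when 1 library was left out. KO N2B27 had 6 higher and 7 lower genes, 12 and 40 without the filter, 2 higher with a pseudocount of 0.1, 2 and 1 with equal sums, 2 lower with median-ratio scaling and 0 and 0 in a fit of the compared groups alone. When 1 library was left out it had 0 to 182 higher and 0 to 67 lower. KO ES cells had 1 lower gene without the filter. They also had a few calls when either WT ES library was left out, which leaves 1 in that group. Same-named means gave 1 higher and 6 lower genes, 0 and 0 without the filter, 12 lower with equal sums, and 0 to 15 higher and 1 to 27 lower when 1 mean was left out. The genotype difference in the EB change had 0 and 1 genes with a pseudocount of 0.1 and 4 and 32 without the filter, and that in N2B27 0 to 3 lower under these settings. When 1 library was left out, the EB difference had 0 to 16 higher and 1 to 53 lower genes, and the N2B27 difference 0 to 28 and 0 to 4. Equal sums shifted the median of all genes by 0.17 (WT) and 0.22 (KO) in N2B27 against EBs and by 0.1 and 0.12 in N2B27 against ES cells. The share of higher among called genes in N2B27 against EBs then rose from 55.3% to 68.8% in WT and from 56.7% to 71.1% in KO. In KO against WT it was 28.7% in EBs, 18.7% with equal sums and 43.3% with median ratios, and 46.2%, 66.7% and 75% in N2B27.

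With 2 WT libraries per culture, the 95% intervals of the Fbxw7 differences between genotypes in single cultures (-0.19 to -0.06) all included 0. Depth was estimated and not given, FPKM hold no counts for a count test, and RNA levels do not measure translation or protein.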

Other observations

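Between the differentiated cultures the MYC targets did not move as 1 block. Of the 79 genes, 13 were higher and 31 lower in WT N2B27 than in WT EBs, beside 31.2% and 25.3% of all genes tested. Ldha fell by 2.66 ± 0.14 (188 against 1200 FPKM, adjusted p = 7.8e-09), Tert, the telomerase reverse transcriptase gene, by 1.68 ± 0.12, and Gnl3, a nucleolar GTPase gene, by 1.18 ± 0.13. The folate gene Mthfd2 rose by 1.36 ± 0.11 (56.6 against 21.4 FPKM) and the amino acid transporter gene Slc7a5 by 1.27 ± 0.13 (101 against 41.6), both of which had fallen from ES cells to EBs. Cdkn1a and Ccnd2, the latter the gene of cyclin D2, rose by 1.88 ± 0.12 and 2.22 ± 0.17. The counts became 22 higher and 19 lower with libraries scaled to equal FPKM sums, and 18 lower without WT EB replicate 2.

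In KO cells the same comparison gave 19 higher and 41 lower targets (24.1% and 51.9%), beside 38.8% and 29.6% of all genes tested. Ldha was at -2.75 ± 0.12, Mthfd2 at 1.33 ± 0.09 and Slc7a5 at 1.14 ± 0.11. Of the network genes, Mxd4 rose from EBs to N2B27 by 1.97 ± 0.12 in WT and by 2.34 ± 0.10 in KO cells, and E2f6, which encodes a member of a repressive complex that holds MAX and MGA, by 1.01 ± 0.12 and 1.37 ± 0.10. Whether these changes differ between genotypes was not tested.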
